A study of Mus musculus with 2 samples.

Results

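Genes that encode chromatin regulators were examined in accessible chromatin of the embryonic mouse striatum, and the genes were a list of 54 in 7 classes. The classes were Polycomb (12 genes), the BAF remodelling complex (15), Chd remodellers (6), histone deacetylases of the Hdac family (7), writers and erasers of DNA methylation (6), histone methyltransferases and demethylases (6) and acetyltransferases (2). The locus of a gene was its RefSeq span extended by 50 kb to either side, and every deposited peak overlapping it by 1 bp or more was taken. This gave 703 of the 87174 peaks, or 0.806%, at 54 of 21774 protein-coding genes. Of these peaks 14 lay in the loci of a neighbouring pair of members, so that there were 717 pairs of a peak and a locus: Cbx2 and Cbx8 shared 8 peaks, and Chd3 and Kdm6b shared 6.

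The study assayed nuclei of E14.5 wild-type embryos, taken from the striatum, by single-nucleus ATAC-seq, in which a transposase cuts and tags open DNA and each nucleus receives a barcode in a droplet. The 2 libraries formed 1 group, labelled WT, with C57BL/6J and CD1 as strain background, and the labels do not tell whether they came from separate embryos. The deposited result was a single list of peak positions for the series, without counts, scores or samples. Read depth, the number of nuclei, the cell types behind a peak and the agreement between libraries are therefore unknown, no value below has a replicate error, and no test between groups was possible.

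Chromatin regulators set which genes a developing cell can use. Polycomb complexes hold genes silent by marking histones: PRC2, with Ezh1 or Ezh2 as its enzyme and Eed and Suz12 as core subunits, methylates histone H3, and PRC1, with Ring1 or Rnf2 as its ubiquitin ligase, marks histone H2A. BAF complexes use the ATPases Smarca2 or Smarca4 to move nucleosomes and open chromatin, and they exchange subunits when neural progenitors become neurons, Actl6a giving way to Actl6b. Chd proteins are further ATP-dependent remodellers, Hdac proteins remove acetyl groups from histones and other proteins, Crebbp and Ep300 add them, and Dnmt and Tet enzymes add methyl groups to cytosine and oxidise them.

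The RefSeq promoter table of build GRCm38.p6, the assembly that mm10 names, listed 57 start sites for 45 of the 54 members, with 250 bases before and 50 bases from each start. Arid2, Cbx2, Hdac1, Hdac3, Chd7, Chd3, Kdm6b, Chd2 and Nsd1 had no entry. Printed here, 5′ to 3′ in the direction of the gene, are the promoters of the catalytic PRC2 pair and of the BAF subunit pair exchanged at neuronal differentiation, of the members with the widest and the narrowest peak at a start, and of Dnmt1 at a start without and a start with a peak. Capitals mark matches, on either strand, to CCGCCC (Sp and Klf factors), CCAAT (NF-Y), TGACAG (the Meis core), TAATTA (the homeodomain core), GGACAGC and CAGCACC (the parts of the REST site) and the Nrf1 motif. A match is a run of letters, not a measured site.
Ezh2, chr6:47594981-47595280, minus strand: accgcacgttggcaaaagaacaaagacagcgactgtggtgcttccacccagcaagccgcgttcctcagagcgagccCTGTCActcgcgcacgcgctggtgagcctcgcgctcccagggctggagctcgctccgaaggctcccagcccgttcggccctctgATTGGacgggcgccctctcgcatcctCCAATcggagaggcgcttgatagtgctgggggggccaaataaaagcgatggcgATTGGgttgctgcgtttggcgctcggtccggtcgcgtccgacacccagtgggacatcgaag
Ezh1, chr11:101226414-101226713, minus strand: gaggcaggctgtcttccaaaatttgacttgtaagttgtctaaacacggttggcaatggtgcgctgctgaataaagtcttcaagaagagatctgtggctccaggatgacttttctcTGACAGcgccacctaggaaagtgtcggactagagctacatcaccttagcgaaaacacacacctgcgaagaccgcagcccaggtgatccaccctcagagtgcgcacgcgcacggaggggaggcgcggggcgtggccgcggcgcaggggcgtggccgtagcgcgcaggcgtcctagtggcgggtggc
Actl6a, chr3:32708296-32708595, plus strand: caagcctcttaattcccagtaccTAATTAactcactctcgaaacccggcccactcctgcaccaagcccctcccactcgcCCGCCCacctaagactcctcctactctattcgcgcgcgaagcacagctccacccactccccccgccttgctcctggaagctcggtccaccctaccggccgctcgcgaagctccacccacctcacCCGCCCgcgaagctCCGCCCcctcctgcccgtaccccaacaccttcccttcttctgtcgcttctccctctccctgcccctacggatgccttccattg
Actl6b, chr5:137553296-137553595, plus strand: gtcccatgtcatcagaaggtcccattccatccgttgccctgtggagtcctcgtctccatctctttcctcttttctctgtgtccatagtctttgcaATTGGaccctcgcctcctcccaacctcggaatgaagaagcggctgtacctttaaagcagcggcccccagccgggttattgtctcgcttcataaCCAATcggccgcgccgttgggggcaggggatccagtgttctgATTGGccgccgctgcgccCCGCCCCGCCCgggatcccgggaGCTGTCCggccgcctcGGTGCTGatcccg
Cbx8, chr11:119040864-119041163, minus strand: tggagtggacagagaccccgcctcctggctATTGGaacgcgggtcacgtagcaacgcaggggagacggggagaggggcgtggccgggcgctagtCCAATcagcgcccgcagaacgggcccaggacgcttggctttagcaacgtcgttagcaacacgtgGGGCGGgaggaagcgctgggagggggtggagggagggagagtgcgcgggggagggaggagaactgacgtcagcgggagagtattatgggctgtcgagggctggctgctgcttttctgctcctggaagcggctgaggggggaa
Setd5, chr6:113104685-113104984, plus strand: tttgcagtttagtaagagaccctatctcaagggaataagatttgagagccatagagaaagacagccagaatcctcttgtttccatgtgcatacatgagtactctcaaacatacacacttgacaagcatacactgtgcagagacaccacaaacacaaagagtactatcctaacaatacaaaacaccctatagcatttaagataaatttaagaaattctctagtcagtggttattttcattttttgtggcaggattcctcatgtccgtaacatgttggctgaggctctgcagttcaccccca
Dnmt1, start without a peak, chr9:20959839-20960138, minus strand: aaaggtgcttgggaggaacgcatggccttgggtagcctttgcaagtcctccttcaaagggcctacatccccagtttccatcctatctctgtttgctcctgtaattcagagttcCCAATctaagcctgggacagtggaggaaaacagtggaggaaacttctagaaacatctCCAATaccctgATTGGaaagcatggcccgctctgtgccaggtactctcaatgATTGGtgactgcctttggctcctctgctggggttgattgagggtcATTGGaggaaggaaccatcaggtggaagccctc
Dnmt1, start with a peak, chr9:20952930-20953229, minus strand: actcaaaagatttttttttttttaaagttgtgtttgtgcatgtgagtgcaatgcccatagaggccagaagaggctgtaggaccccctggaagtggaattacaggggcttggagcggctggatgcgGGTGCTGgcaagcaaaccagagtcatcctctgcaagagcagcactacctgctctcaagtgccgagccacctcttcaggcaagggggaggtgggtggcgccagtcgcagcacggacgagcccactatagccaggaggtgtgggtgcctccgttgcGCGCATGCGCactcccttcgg

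These windows differed in composition. The Ezh2 promoter held 31 CpG dinucleotides at a GC content of 64.3%, with 3 CCAAT boxes at -90, -64 and -11 from the start, counted to the first base of the match. The Ezh1 promoter held 23 CpG at 59.3% GC and no CCAAT box. Each of the pair had 1 TGACAG. The Actl6b promoter held 3 CCAAT boxes and both parts of the REST site just downstream of the start, at 21 and 37, and its CCGCCC matches at -2 and 3 overlapped. The Actl6a promoter had 3 CCGCCC matches and neither part of the REST site. Its TAATTA at -227 was the only match to this motif among the members' 57 windows. The Setd5 window, by contrast, held 1 CpG at 39.7% GC, and the upstream Dnmt1 window held 2 at 51.3%. The printed Dnmt1 window with a peak held 12 and carried the Nrf1 match at 29. A further Dnmt1 start under the same peak, not printed, had a window with 33 CpG at 69.7% GC. That window also held an Nrf1 match.

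Peaks were numerous at the member loci. The median was 10.5 peaks per locus, with a range of 2 to 62, against a median of 6 over all protein-coding genes with quartiles of 3 and 11. Members were long, with a median span of 52048.5 bp against 17219 bp. Counts were therefore also set against the mean of protein-coding genes of similar length, in 10 length classes of equal size. The longest class has no upper limit, so similarity is loose there. Dnmt3a with 112885 bp and Hdac9 with 869516 bp are both set against its mean of 15.6 peaks. Summed over the 54 members, peaks were 1.41 times the mean of their length classes. These means include the 14.1% of protein-coding genes with no peak in the locus. With means over genes that have a gene-end peak, a choice made after seeing the data, the ratio was 1.27. Above the median of their length class lay 41 of 54 members, as did 46.2% of all protein-coding genes. The ratio of 1.41 was not particular to the members: marker lists described below had ratios from 0.879 (liver) to 1.95 (ventral forebrain and striatum). Per 100 kb of locus the members' median was 7.46 peaks against 4.58, and peaks covered a median of 10.1% of a locus against 4.26%. The unique peaks had a median width of 778 bp against 565 bp over the whole list.

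Of the 717 pairs, 10.3% lay within 1000 bp of an end or a listed start of the member itself, 32.9% lay inside its span, 18.7% at the end of another coding gene, 19.0% inside another coding gene and 19.1% between genes. Which gene a peak acts on was not tested. The median number of other coding genes in a locus was 3 for the members and 3 for all protein-coding genes. Across the 54 members, Spearman's rho was 0.53 between peaks and other coding genes, both per 100 kb of locus, and 0.33 over all coding genes. Between peaks and gene length it was 0.23 in members and 0.36 over all coding genes, and in members 0.55 when peaks at or inside the member alone were counted. A longer span has more room for peaks inside it, so a positive value is built into that count. Its value over all coding genes was not computed. These correlations are across genes that share 1 peak list and in part share neighbours. In the correlation of peaks with other coding genes, both values are divided by the same locus length. That alone can make them rise together.

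**Figure D1:**
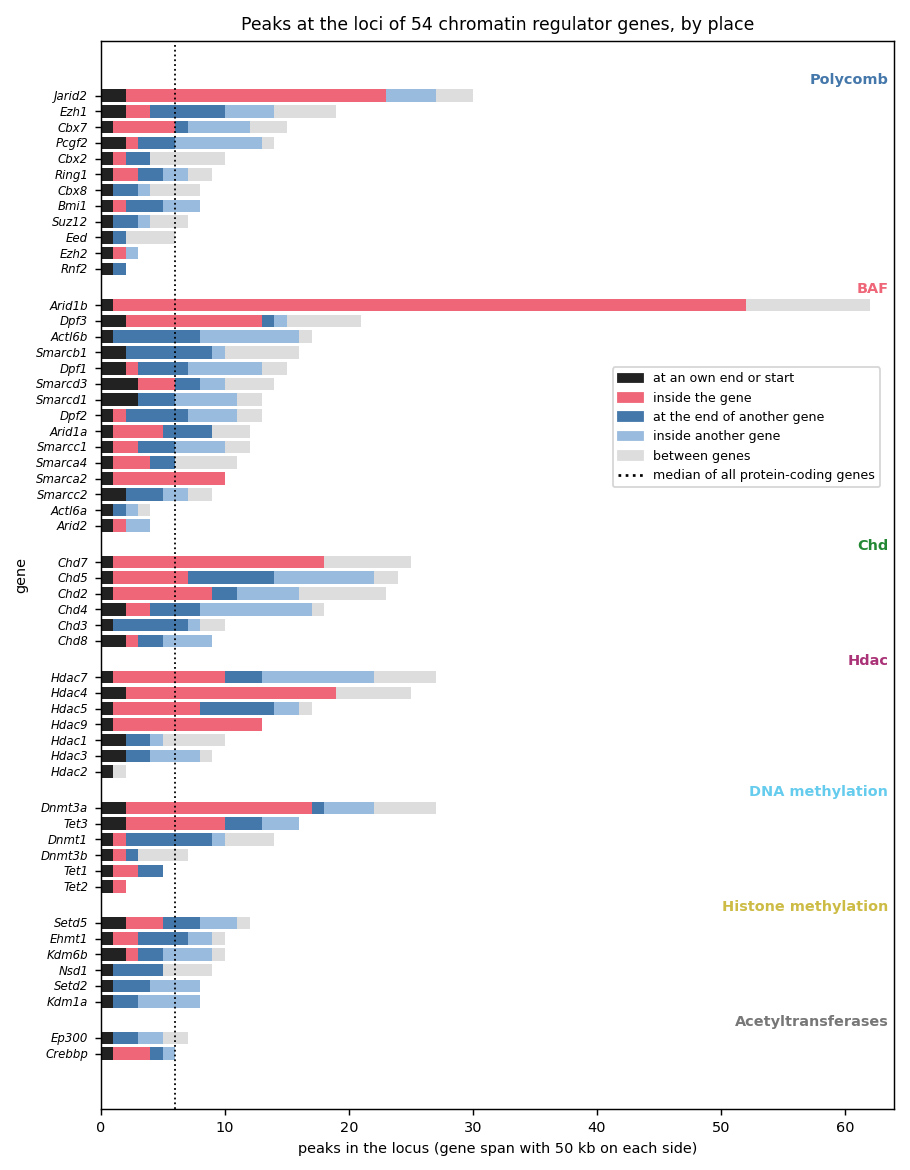
Each bar gives the number of deposited peaks (x axis) in the locus of a member (y axis), divided by where the peak lies, with members grouped by class. The dotted line is the median of 6 over all protein-coding genes, and Arid1b with 62 peaks, 51 of them inside the gene, is the longest bar.

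Relative to genes of similar length, the number of peaks with 50 kb flanks was 1.77 times the mean for the Chd class, 1.60 for BAF, 1.55 for Hdac, 1.38 for Polycomb and 1.24 for DNA methylation. This order turned when less of the surroundings was counted. With 10 kb flanks Hdac had 1.65, BAF 1.59, Polycomb 1.47, Chd 1.33 and DNA methylation 1.23, and for the gene span alone Hdac had 1.63, Polycomb 1.55, BAF 1.52, DNA methylation 1.27 and Chd 1.24. The histone methylation genes had 1.0 with 50 kb flanks, but 0.659 with 10 kb flanks, 0.511 for the span alone and 0.427 with each peak given to the nearest gene end. The acetyltransferases had 0.527, and 0.322 for the span alone. Against means over genes with a gene-end peak only, the ratios at 50 kb were lower. Chd had 1.62, BAF 1.44, Hdac 1.39, Polycomb 1.18 and DNA methylation 1.14. Histone methylation had 0.917 and the acetyltransferases 0.494. Leaving out single members moved the values at 50 kb: Chd ranged from 1.56 to 1.90, BAF from 1.31 (without Arid1b) to 1.76, Hdac from 1.28 (without Hdac7) to 1.77, Polycomb from 1.28 to 1.5, DNA methylation from 1.05 (without Dnmt3a) to 1.43 and histone methylation from 0.938 to 1.14. All 6 Chd genes, 12 of 15 BAF, 6 of 7 Hdac, 9 of 12 Polycomb, 4 of 6 DNA methylation and 4 of 6 histone methylation genes lay above the median of their length class, and neither acetyltransferase did.

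**Figure D2:**
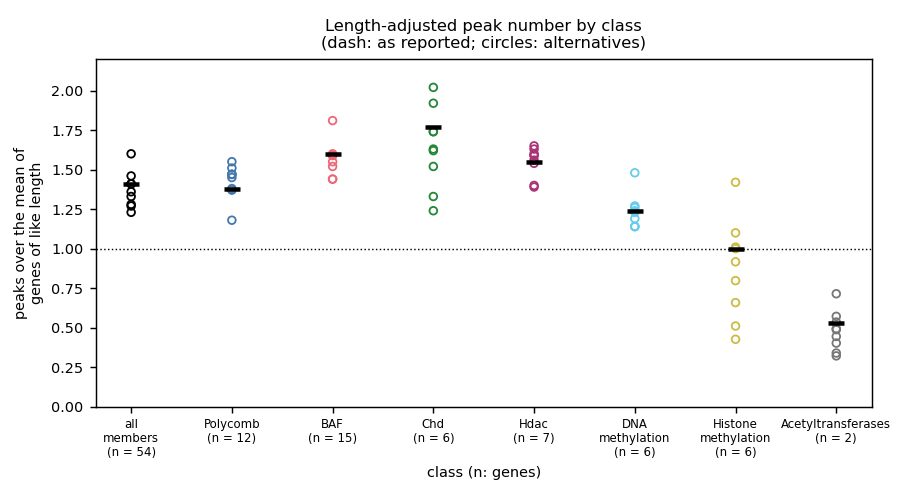
For all members and each class (x axis, with the number of genes), the black dash is the number of peaks relative to genes of similar length (y axis, a ratio; the dotted line marks 1), and circles are the same ratio under other ways of counting. The Chd, BAF, Hdac, Polycomb and DNA methylation classes stay above 1 under every alternative drawn, and the acetyltransferases stay below it.

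Among the PRC2 genes, the enzyme pair differed in opposite ways in peak number and in start peak width. Ezh1 (chr11:101191115-101226463, minus strand) had 19 peaks and Ezh2 (chr6:47530274-47595270, minus strand) had 3. The Ezh1 locus also holds 7 other coding genes, and only 4 of its 19 peaks lay at or inside Ezh1. At the starts the order was the other way: a 2267 bp peak covered the Ezh2 start and a 928 bp peak the Ezh1 start, the narrowest of the Polycomb class. The remaining Ezh2 peaks were 359 bp inside the gene and 420 bp inside another gene. Eed and Suz12, the core subunits, had 6 and 7 peaks with start peaks of 2144 and 1806 bp. Jarid2 (chr13:44730774-44921643, plus strand), which helps to bring PRC2 to its targets, had 30 peaks, the most in the class, and 21 of them lay inside the gene.

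The PRC1 genes held the widest peaks of the whole member set. At Cbx8 (chr11:119036303-119040913, minus strand), a chromodomain subunit that reads the PRC2 mark, a single 14926 bp peak at chr11:119033894-119048820 covered 100% of the gene and ranked 16 in width among all 87174 peaks. It reached 7907 bp upstream and 7019 bp downstream of the start. Within the same locus lay a peak of 9092 bp between genes. Peaks covered 41.4% of the Cbx8 locus and 32.5% of that of its neighbour Cbx2, the highest values of the 54. Both loci rest largely on the same 8 peaks. Cbx7, whose product is also a chromodomain subunit, had 15 peaks but none at either gene end, and a 2007 bp peak covered its listed start inside the span.

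The ligase gene Ring1 (chr17:34020792-34024680, minus strand) had 9 peaks against 2 at its paralogue Rnf2. A 9299 bp peak, rank 81, covered the Ring1 start and extended 8544 bp upstream over H2-Ke6, Slc39a7 and Rxrb. Rnf2 had a 1786 bp peak at its start and 1 further peak, at another gene. Pcgf2 and Bmi1, ring-finger partners of the ligases, had 14 and 8 peaks. The Pcgf2 start lay under a 6676 bp peak that also touched Psmb3, and the Bmi1 start under a 2591 bp peak.

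The BAF class held the richest locus. Arid1b (chr17:4994297-5347656, plus strand), a DNA-binding subunit of canonical BAF, had 62 peaks, 3.96 times the mean of the longest length class. That class also holds Dnmt3a with a span of 112885 bp, against 353360 bp for Arid1b. Of the 62 Arid1b peaks 51 lay inside the gene, 1 at its start and 10 between genes, and its locus holds 0 other coding genes. The peaks inside had a median width of 448 bp, and the widest, 2457 bp, lay at chr17:5211131-5213588. Arid1a had 12 peaks and a 6704 bp peak over both of its listed starts. Arid2, the subunit of the PBAF form, had 4 peaks, 0.256 times the mean of its length class, although the peak at its end measured 5833 bp.

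The ATPase genes Smarca4 and Smarca2 had 11 and 10 peaks. All 10 Smarca2 peaks lay at or inside the gene, against 4 of 11 for Smarca4, and the start peak was 4907 bp at Smarca2 and 2331 bp at Smarca4. With 10 kb flanks the counts were 4 for Smarca4 and 10 for Smarca2. Smarcb1, a core subunit, had 16 peaks, of which 7 lay at ends of other genes, in a locus with 7 other coding genes. The scaffold genes Smarcc1 and Smarcc2 had 12 and 9 peaks within 50 kb and 5 each within 10 kb. Smarcd3 and Smarcd1 had 14 and 13, with start peaks of 6623 and 4449 bp, and with 100 kb flanks they had 21 and 26.

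Of the subunits exchanged between progenitors and neurons, Actl6b (chr5:137553361-137569582, plus strand) had 17 peaks and Actl6a (chr3:32708546-32726973, plus strand) had 4. Only 1 of the 17 lay at Actl6b, however, a 1270 bp peak at its start that was the narrowest start peak of the class, and 15 lay at or inside the 6 other coding genes of the locus. With 10 kb flanks Actl6b had 2 peaks and Actl6a 3, and the Actl6a start peak measured 1824 bp. Dpf3, Dpf1 and Dpf2 encode alternative subunits with paired PHD fingers, the first 2 of them linked to neurons and Dpf2 expressed widely. Dpf3 had 21 peaks, Dpf1 had 15 and Dpf2 had 13, with start peaks of 4590, 6637 and 2268 bp. With 100 kb flanks they had 22, 24 and 25, and relative to genes of similar length 1.34, 2.14 and 1.85 times the peaks at 50 kb. At Dpf1, a 13641 bp gene, peaks of 6637 and 6357 bp covered 44.1% and 22.1% of the span, the latter shared with Sipa1l3.

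In the Chd class, Chd7, mutated in CHARGE syndrome, had 25 peaks, of which 17 were inside the gene, and Chd8, a gene linked to autism, had 9. Of the NuRD remodeller genes Chd5 had 24, Chd4 had 18 and Chd3 had 10. Of these, 7 at Chd5, 4 at Chd4 and 1 at Chd3 lay at or inside the gene itself. Their loci held 5, 7 and 7 other coding genes. The Chd4 starts lay under a 5517 bp peak, and a 7986 bp peak, rank 143, lay at an end of Chd3. Chd2, linked to epilepsy, had 23 peaks, of which the 8 inside the gene had a median width of 187 bp.

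Among the deacetylase genes, the class I genes Hdac1, Hdac3 and Hdac2 had 10, 9 and 2 peaks, none of them inside the gene away from an end or start. The class IIa genes, whose products shuttle between nucleus and cytoplasm, had 27 at Hdac7, 25 at Hdac4, 17 at Hdac5 and 13 at Hdac9, with 9, 17, 7 and 12 inside. The subclasses overlapped on other scales. Relative to the mean of the length class Hdac9 had 0.831 times the peaks, below Hdac1 with 1.42 and Hdac3 with 1.33. With 100 kb flanks Hdac9 had 20, Hdac1 20 and Hdac3 21. No peak of the Hdac class was among the broadest 1%, and the widest at a start were 4412 bp at Hdac4, 4325 bp at Hdac7 and 4177 bp at Hdac5. Hdac7 and Hdac9 had no peak at either gene end. The outermost listed Hdac9 start (base 34917095 of chromosome 12) had no peak, and a 1689 bp peak covered a start 388206 bp further into the 869516 bp gene. Peaks covered 0.77% of the Hdac9 locus, the least of all members.

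Of the DNA methyltransferase genes, Dnmt3a, the de novo enzyme, had 27 peaks, Dnmt1, the maintenance enzyme, had 14, and Dnmt3b, the other de novo enzyme, had 7. At Dnmt3a (chr12:3801559-3914443, plus strand) 17 of the 27 lay at its starts or inside it. A 6878 bp peak covered its first 2 listed starts and a separate 2764 bp peak covered the start 84764 bp downstream. At Dnmt1 the outermost listed start had no peak, and a 2115 bp peak at chr9:20951442-20953557 covered the starts 6909 and 7265 bp downstream. A further 7 peaks of the Dnmt1 locus lay at ends of other genes. The Tet genes, whose products oxidise methylcytosine, ranked Tet3 with 16, Tet1 with 5 and Tet2 with 2. Tet3 carried 2 peaks of the broadest 1%, of 6494 and 4994 bp, and the start peaks of Tet1 and Tet2 were 1876 and 2594 bp.

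The histone methylation genes spanned a narrow range, from 8 to 12 peaks. Setd5 had 12, Ehmt1 and Kdm6b had 10 each, Nsd1 had 9, and Setd2 and Kdm1a had 8 each. Only 10.5% of the peaks in this class lay inside the member, against 32.9% over all members, and 31.6% lay at ends of other genes. Nsd1, a histone methyltransferase gene of 108544 bp, had 0 peaks inside beyond the 4421 bp peak at its end. Kdm6b, which removes the PRC2 mark, was the exception in width, with peaks of 8245 bp (rank 126, touching Dnah2) and 7621 bp (rank 161, touching Cyb5d1, Naa38 and Tmem88). The acetyltransferase members had few peaks relative to their length classes: Ep300 had 7 and Crebbp 6, with start peaks of 2552 and 2297 bp.

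A peak lay at a start of every member with a listed start. A start peak, within 1000 bp of a listed start, was present at 45 of 45 members with an entry, against 66.6% of 17492 protein-coding genes with one. At either gene end 49 of 54 members had a peak, against 67.3%. The 5 without were Cbx7, Hdac7, Hdac9, Dnmt1 and Dnmt3a, and each had a peak at a listed start inside its span. Of the 57 listed starts 53 had a peak, and the 4 without were the outermost starts of Dnmt1 and Hdac9 and 2 of the 4 of Hdac7.

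The widest start peak had a median width of 2297 bp over the 45 members, from 368 to 14926 bp, against 1739 bp over genes with one. By class the medians were 4177 bp for Hdac (5 genes), 3521 bp for BAF (14), 2424.5 bp for the acetyltransferases (2), 2354.5 bp for DNA methylation (6), 2267 bp for Polycomb (11), and 1848 bp each for Chd (3) and histone methylation (4). Members without an entry, such as Chd3, Chd7, Kdm6b and Nsd1, are absent from these medians. For the widest gene-end peak, over all members with 0 for none, the order differed. Medians were 4256 bp for BAF, 3109.5 bp for Chd, 2701 bp for histone methylation and 2429 bp for Polycomb. They were 2424.5 bp for the acetyltransferases, 1970 bp for Hdac and 1817.5 bp for DNA methylation. Start peaks reached a median of 1104 bp upstream and 1282 bp downstream in members, and 719 and 937 bp over genes. They extended further downstream than upstream in 33 of 45 members, or 73.3%, and in 65.9% of genes. In 44 of 45 members the peak covered the start. Setd5 was the exception: the 368 bp peak at chr6:113103770-113104138 had its midpoint at -981 bp, while a 3210 bp peak lay at the upstream end of its span, at chr6:113075582-113078792.

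**Figure D3:**
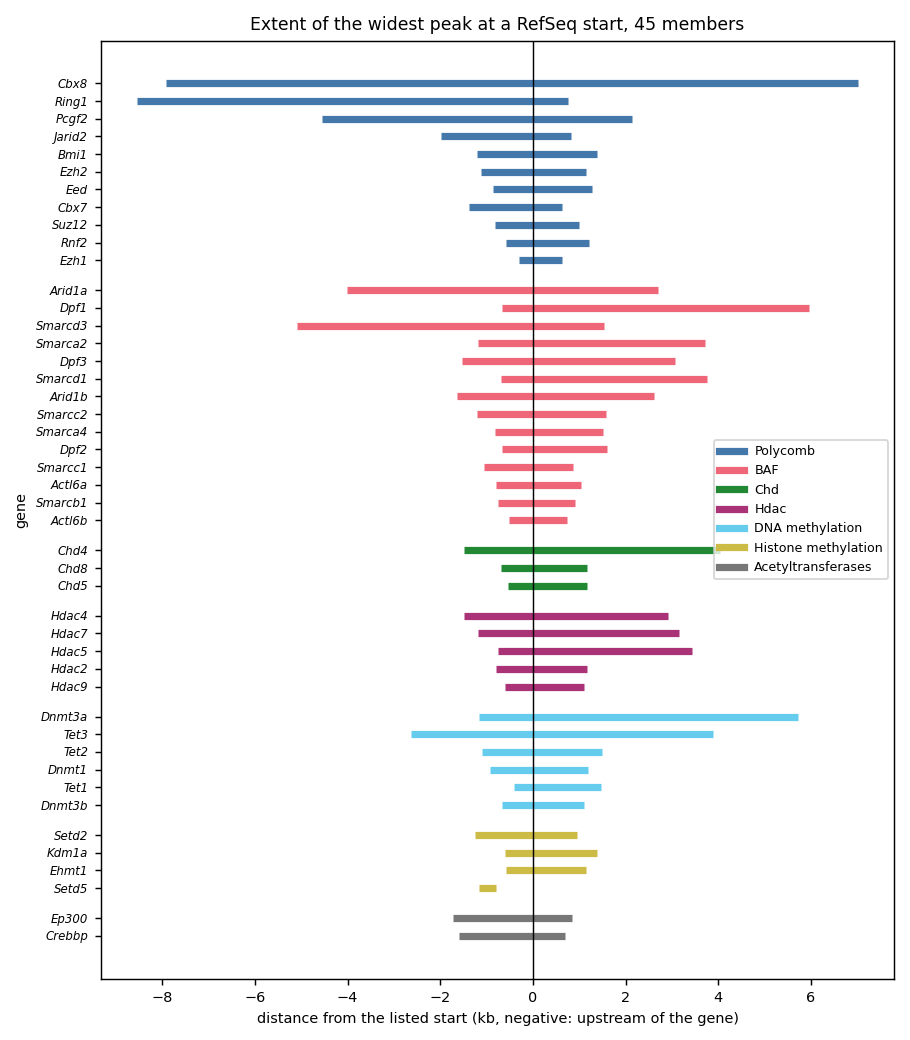
Horizontal bars show how far the widest peak within 1000 bp of a listed start extends upstream (negative) and downstream (x axis, kb) for the 45 members with a RefSeq start (y axis), coloured by class. Cbx8, Ring1, Pcgf2 and Smarcd3 extend mainly or strongly upstream, Dpf1 and Dnmt3a downstream, and the Setd5 bar is the one that does not cross the start.

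A peak of the broadest 1% of the list, wider than 4479 bp, reached within 1000 bp of 14 of 54 members, against 3.95% of protein-coding genes. The 14 were Pcgf2, Cbx8 and Ring1 among Polycomb genes, Smarca2, Smarcd3, Arid1a, Arid2, Dpf1 and Dpf3 among BAF genes, Chd3 and Chd4, Dnmt3a and Tet3, and Kdm6b. Of the 703 unique peaks 25, or 3.56%, were that broad. Dpf3 at 4590 bp was the member closest above the limit, and Smarcd1 at 4449 bp, Nsd1 at 4421 bp and Hdac4 at 4412 bp were closest below it. At the limit of the broadest 5%, 2544 bp, 32 of 54 members and 17.3% of genes had such a peak. The shares of genes were not adjusted for gene length. Counting only peaks within 1000 bp of a gene end or a listed start, including starts inside the span, also gave 14 members. The share of all genes under this rule was not computed.

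The members' promoters were rich in CpG. Median GC content was 67.3% over 57 member starts and 56.3% over 21263 starts of protein-coding genes, and the median ratio of observed to expected CpG was 0.875 and 0.567. Over all genes, starts with a peak had 61.3% and 0.748, and starts without had 46.3% and 0.171. The 4 member starts without a peak had medians of 53.0% and 0.143, below the 68.3% and 0.879 of the 53 with a peak. By class the median GC content over starts, not genes, ran from 60.7% in Hdac (9 starts) to 77.2% in the acetyltransferases (2 starts). The Hdac starts include those of Hdac7 and Hdac9 without a peak. The lowest CpG ratios among starts with a peak were those of Setd5 (0.0861), the inner Hdac9 start (0.205) and Pcgf2 (0.362).

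**Figure D4:**
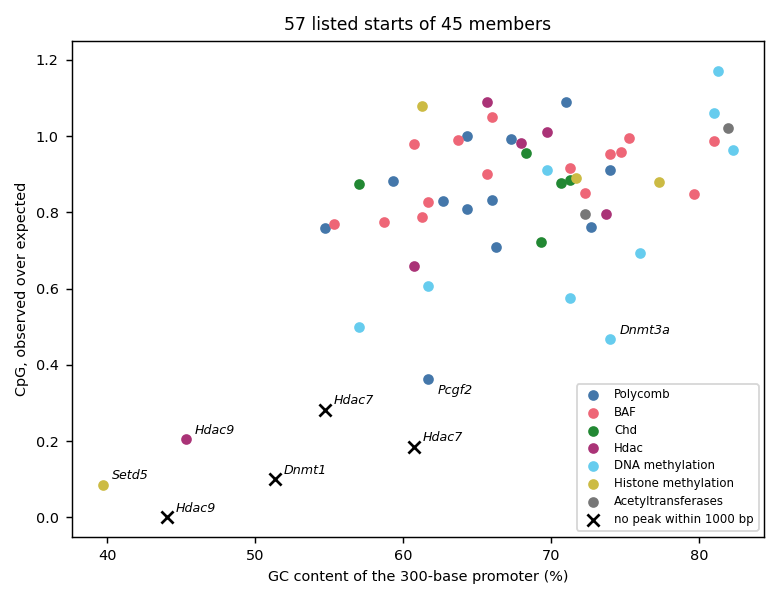
Each point is a listed start, with the GC content of its window (x axis, %) and the ratio of observed to expected CpG (y axis), coloured by class, and crosses mark the 4 starts without a peak within 1000 bp. The crosses lie at ratios from 0 to 0.283, and among starts with a peak Setd5, with 39.7% GC and 0.0861, and the inner Hdac9 start, with 45.3% and 0.205, lie lowest.

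Motif matches were searched in the windows on both strands, and shares are given for the 57 member starts, for all starts and for all starts with a peak. CCGCCC was present at 77.2%, 46.2% and 64.4%. CCAAT was at 35.1%, 38.2% and 37.3%, and TGACAG at 14.0%, 18.7% and 16.4%, with matches at Dnmt1, Dpf3, Ezh1, Ezh2, Hdac5, Hdac7, Jarid2 and Smarca2. GGACAGC was at 14.0%, 6.88% and 7.7%, and CAGCACC at 5.26%, 7.24% and 7.77%. Actl6b was the printed promoter with both. TAATTA was at 1.75%, 4.53% and 2.53%, and TATAAA at 3.51% (Hdac9 and Jarid2), 12.6% and 6.84%. The Ets motif CCGGAAGT was at 0 of 57 member starts, 5.15% of all starts and 7.28% of those with a peak. The Nrf1 motif was at 3.51%, both windows being of Dnmt1 starts, 1.33% and 1.91%. The Yy1 motif AAGATGGC was at 1 member start, Smarcd1, against 3.05% and 3.94%, and the E2f motif GGCGGGAA at 1, Arid1a, against 2.85% and 3.99%. Several of these shares rest on 1 or 2 member starts.

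Inside long members, peaks ranged from none to dense. Spans over 100 kb were found in 14 members. Per 100 kb of gene, peaks away from ends and starts numbered 14.4 in Arid1b, 13.3 in Dnmt3a, 11.0 in Jarid2 and 9.55 in Chd7. They numbered 6.95 in Chd2, 6.37 in Hdac4, 5.19 in Smarca2 and 4.01 in Dpf3. Crebbp with 2.26, Smarcc1 with 1.85, Ehmt1 with 1.55, Hdac9 with 1.38, Arid2 with 0.848 and Nsd1 with 0 were sparse. The 10 long members with a listed strand had 66 peaks on the start side of the gene's midpoint and 77 on the far side. The start side thus held 46.2% of them, as it held 46.7% in long protein-coding genes at large. Members did not share a pattern: Hdac9 had 10 of its 12 on the start side, Dnmt3a 9 of 15, and Dpf3 2 of 11. The start side is counted from the outer end of the span. For Hdac9 that is the outermost start, which had no peak. The 10 peaks on that side lie upstream of the inner Hdac9 start that had one.

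**Figure D5:**
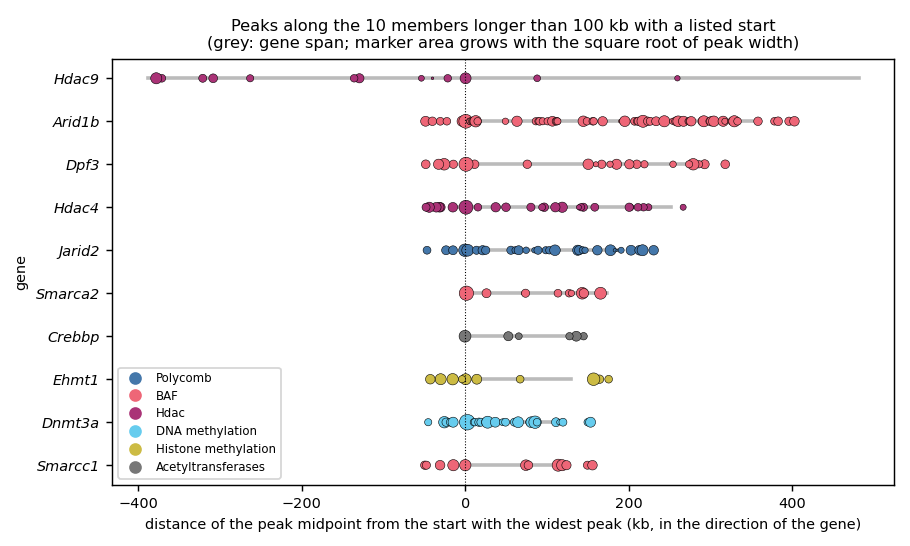
Circles mark peak midpoints along the 10 members longer than 100 kb that have a listed start (y axis), by distance from the start with the widest peak in the direction of the gene (x axis, kb), and the grey line is the gene span. Arid1b, with 51 peaks inside, and Jarid2, with 21, are filled along their length, and Hdac9, with 12 inside, is mostly empty.

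Within 13 of 17 groups of paralogues, the member with most peaks at 50 kb also had most, or tied, with 10 kb flanks. The 10 kb locus lies inside the 50 kb locus, so the 2 counts share peaks. Agreement is thus in part built in, and the number due to this overlap was not computed. The order within a group turned between Smarca4 and Smarca2, Actl6b and Actl6a, and Ep300 (2 peaks at 10 kb) and Crebbp (5), and in the class IIa group Hdac4 with 19 then exceeded Hdac7 with 16. With 10 kb flanks Arid1b had 54 peaks against 8 at Arid1a and 2 at Arid2, Dnmt3a had 20 against 2 at Dnmt3b, and Chd7 had 20 against 4 at Chd8. Other contrasts shrank by more than 1.5 times: from 16 to 5 peaks between Ezh1 and Ezh2, from 14 to 3 between Hdac7 and Hdac9, from 14 to 6 between Chd5 and Chd3 and from 14 to 9 between Tet3 and Tet2. Leaving out peaks at the ends of other genes gave 13 at Ezh1 and 3 at Ezh2, 10 at Actl6b and 3 at Actl6a, and 10 at Smarca2 and 9 at Smarca4.

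The members were also set beside 71 other genes of the same complexes and families, which had a median of 8 peaks, a range of 2 to 32 and 1.13 times the peaks of genes of similar length. Of these, 70 had a peak at a gene end, against 67.3% of all protein-coding genes. Above the median of their length class lay 40, against 46.2%, and 8 had a peak of the broadest 1%, against 3.95%. Bcl11b, a BAF-associated zinc-finger gene known in striatal neurons, had 32 peaks, Phc2, a PRC1 subunit gene, had 26, and Kat6b, an acetyltransferase gene, had 22. The histone demethylase gene Kdm4c was the only other gene without a gene-end peak, and it had a 2027 bp peak at a listed start. By class the ratio of the other genes was 1.34 for BAF, 1.32 for acetyltransferases, 1.19 for DNA methylation, 1.15 for Polycomb, 0.992 for Chd, 0.951 for histone methylation and 0.948 for Hdac. For comparison, the members stood at 1.60 for BAF, 0.527 for acetyltransferases, 1.24 for DNA methylation and 1.38 for Polycomb. They stood at 1.77 for Chd, 1.0 for histone methylation and 1.55 for Hdac. The acetyltransferases were the class in which members lay below the other genes. These differences were not tested.

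The tissue label was checked on marker genes. All 16 ventral forebrain and striatal markers had a gene-end peak and 12 had a peak of the broadest 1%. Over all protein-coding genes these shares were 67.3% and 3.95%. The 12 markers do not stand for 12 separate peaks. Dlx1 and Dlx2 shared a peak of 25417 bp, and Dlx5 and Dlx6 shared a peak of 25330 bp. A gene-end peak was also present at all 5 markers of the cortical excitatory lineage and 4 of 5 endothelial markers. It was present at 2 of 5 microglial, 2 of 4 erythroid and 1 of 5 liver markers. None of the lists other than the ventral forebrain and striatal one held a peak of the broadest 1%. Relative to genes of similar length, the ventral forebrain and striatal markers had 1.95 times the peaks, and the members 1.41. Ratios were 1.68 for erythroid, 1.67 for microglial, 1.55 for cortical excitatory, 1.42 for endothelial and 0.879 for liver markers. Peak number at a locus thus did not set the members apart from most of these lists. A part of other cell types in the peaks at the members was not tested.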

How the data were processed

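The submitters' processing notes name mm10 as the build and list Signac and Cell Ranger ATAC 1.2.0 as tools. The peak caller, pooling of libraries and handling of doublets are not given in the sources used here. The authors deposited peak positions alone, a value of another kind than a count or score. The coordinate base of the list is not stated, so a printed start may be off by 1 base. Depth and precision are unknown.

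Genes came from a RefSeq table of GRCm38.p6, of which 402 of 49997 entries were left out. These lay off the main chromosomes or in later or restarting blocks of positions, taken as alternate scaffolds. Of the remaining 49595, 21774 were protein-coding. The table gives spans only, so exons and UTRs are not given. Starts, strands and sequences came from the RefSeq promoter table, which matched 45 members. Some results are not reported here. The members, classes, paralogue groups, motifs and other lists were chosen with earlier results of these data known.

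Peaks were joined to loci in Python 3.11.15 with numpy 2.4.6 and pandas 2.3.3, with a minimum overlap of 1 bp. Counting was tested on simulated data, where 200 of 200 loci matched a direct scan. Places were assigned in the order own end or start, end of another gene, inside the gene, inside another gene, between genes. Named in full were members of paralogue groups, the 3 with most and fewest peaks, those with a peak of the broadest 1% or no gene-end peak, and the widest and narrowest per class. Other members are named where they were described with their class, after their values were seen. Alternatives changed the flank, the window, the peaks and the gene each peak counts for.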

Additional observations from a re-analysis of the deposited data

How the results depend on the processing

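Alternatives were flanks of 10 and 100 kb, the span alone, end windows of 500 and 2500 bp, peaks of at least 20 bp, peaks wider than the median, peak midpoints and each peak given to the nearest gene end. Leaving out peaks at ends of other genes, and a length-class mean over genes with a gene-end peak, were chosen after seeing the data. A value within 1.5 times the reported one was counted as unmoved. For the member set and its classes, 86 values were unmoved and 6 moved, while of the paralogue differences with 10 kb flanks 6 were unmoved, 8 moved and 3 reversed, and the ratio over all members ran from 1.23 to 1.60. The 8 that moved became 5 for Ezh1 minus Ezh2, 3 for Ring1 minus Rnf2, 1 for Pcgf2 minus Bmi1, 0 for Smarcc1 minus Smarcc2, 6 for Chd5 minus Chd3, 2 for Hdac1 minus Hdac2, 3 for Hdac7 minus Hdac9 and 9 for Tet3 minus Tet2. The histone methylation ratio fell to 0.659 with 10 kb flanks, 0.511 for the span alone and 0.427 by nearest gene end. The acetyltransferase ratio fell to 0.322 for the span alone and 0.34 by nearest gene end. Members with a broad peak numbered 32 at the broadest 5%. With 10 kb flanks the difference in peaks became -6 for Smarca4 minus Smarca2, -1 for Actl6b minus Actl6a and -3 for Ep300 minus Crebbp. The causes were not tested. No paired analysis was possible because the 2 libraries form 1 group and the list holds no column per sample, and for the same reason no replicate could be left out.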
